A study of Mus musculus with 12 samples.

Results

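The 33 elements described here were the unmodified sequences of a retinal reporter library that carried the 7 adjacent bases AAGGTCA on either strand, the half-site of nuclear receptors preceded by an A. They were found by searching the designed sequence of each of the 1270 unmodified elements (1 per genomic region) and made up 2.60% of them. The whole library held 14987 elements, the rest being modified versions. The other 1237 unmodified elements, which lacked the 7 bases, served for comparison.

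The data came from CRE-seq, which reads reporter transcripts of many cloned sequences at once. Each element of 100 bp sits upstream of a photoreceptor promoter and a DsRed gene whose transcript carries element-specific barcodes of 13 bp. The promoter was that of rhodopsin (pRho) or of the homeobox gene Crx (pCrx), both of mouse photoreceptors. Intact retinas of newborn wild-type CD1 mice (P0) received 30 µg of one library with 30 µg of a CAG-GFP plasmid by electroporation and were kept in culture for 8 days. For either promoter 3 pools of 5 retinas were the replicates, and every pool gave a cDNA and a DNA library, so the values were averages over all retinal cells that took up plasmid.

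Nuclear receptors bind DNA through a zinc-finger domain that reads the hexamer AGGTCA, either as a pair of hexamers bound by a dimer or as a single hexamer with bases added on its 5′ side, bound by a monomer. The single extended form is the classical site of the ROR and ERR receptors, and in ERR-type sites the bases T and C come before AAGGTCA. In the retina RORβ takes part in the specification of rods, ERRβ is found in rods, and NR2E3 holds cone genes down in rods. The homeodomain protein CRX, which has a lysine (K) at position 50 of its homeodomain, binds sites of the type TAATCC beside many photoreceptor genes.

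The half-sites of the most and least active elements are shown first, because the activities below refer to them. Each is written 5′ to 3′ on its own strand with up to 10 neighbouring bases on either side, and the capitals mark the half-site. The 6 elements from chr7:116981288-116981387 to chr7:13540186-13540285 were among the 5 highest on pRho, on pCrx or on both.
chr7:116981288-116981387, minus strand: aattgctgagAAGGTCAgccactgcaa
chr11:57530360-57530459, minus strand: ggatggaaggAAGGTCAcacagggatt
chr8:75754210-75754309, minus strand: tgctgggattAAGGTCAcggataggat
chr7:52023048-52023147, plus strand: gagttcaagcAAGGTCAgaactaagcg
chr11:120313700-120313799, minus strand: gtccatggccAAGGTCActgggcttag
chr7:13540186-13540285, minus strand: gggtggactgAAGGTCActgtgcccag

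The 6 elements that were among the 5 lowest on either promoter carried the following half-sites, and the half-site of the first of them lies 2 bases from the edge of its element.
chr8:27956015-27956114, minus strand: ccAAGGTCAccaagctaag
chr8:107126118-107126217, plus strand: ttaagagttcAAGGTCAtgctcagatg
chr2:120534432-120534531, plus strand: ccaaatctacAAGGTCAaggacaccct
chr17:35101652-35101751, plus strand: cagcagagtgAAGGTCAgggctctgta
chr10:79795066-79795165, minus strand: tgctccaatgAAGGTCAgaggctaggc
chr9:108433406-108433505, minus strand: ggtaaactggAAGGTCAgggatagagt

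The same 7 bases thus stood in elements at both ends of the range. Coordinates are of the mouse build mm9 and count from 1, and strand and position are as the design table writes each element. Genes and exons at these places were not assigned, since no annotation of mm9 was used here. A search of 32851 RefSeq promoter sequences (assembly GRCm38.p6) found none that shared 25 adjacent bases with a half-site element, against 20 of the 1270 unmodified elements.

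The 33 elements came from 17 chromosomes, and their half-sites lay on the plus strand in 10 and on the minus strand in 23. The first base of the half-site stood at positions 7 to 92 of the element. No element held the 7 bases more than once, and 4 held a further AGGTCA. The base before the half-site was C in 18 elements, G in 8, A in 5 and T in 2, and the 7 elements with T and C before it matched the ERR type. The base after it was C in 12, G in 10, A in 8 and T in 3. The GC content ran from 38% to 60% with a median of 47%, against 49% in the other unmodified elements.

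Other photoreceptor motifs were searched on both strands. TAATCC, the CRX-type site, occurred in 22 half-site elements (66.7%), in 63.6% of the others and in 63.7% of all unmodified elements. Where it occurred it lay a median of 23 bases from the half-site, from an overlap of 1 base to a gap of 50. The NEUROD-type E-boxes CAGATG or CATATG were in 3 (9.09%; 11.3% of the others and of all unmodified elements), and the NRL half-site TGCTGA was in 4 (12.1%; 12.5% of the others and of all). AAGTCA, an NR2E3-type half-site, was in 4 (12.1%), against 3.96% of the others and 4.17% of all, and in 1 of the 4, chr1:88448548-88448647, it shares a base with the AAGGTCA. The palindromic MEF2 site was in none, against 1.62% of the others and 1.57% of all. A match of letters is a description and not evidence of binding.

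Read totals were alike in all libraries, from 24726849 to 36500857 barcode reads. The half-site elements had 780 to 4292 DNA reads and 381 to 8310 cDNA reads per library with pRho, and 482 to 3919 and 321 to 8097 with pCrx, spread over 6 barcodes in 10 elements and 7 in 23. The activity of an element is the log2 ratio of its cDNA reads to its DNA reads after scaling (TMM), so that 0 is near a typical element of the library and not the promoter alone. Scaling by total counts instead lowers the median of all elements by 0.20 on pRho and 0.34 on pCrx. Errors are standard errors of edgeR's fit over 3 replicates unless another is named, and an element is called higher or lower at an adjusted p under 0.05 (edgeR's quasi-likelihood test with Benjamini-Hochberg adjustment over all 14987 elements). The 3 pools share barcodes and PCR reads carried no molecular identifiers, so these p-values measure the spread between pools and not between barcodes.

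On pRho, 19 of the 33 half-site elements were called higher (57.6%) and 12 lower (36.4%), and 2 were not called. Over all elements of the library, 43.2% were called higher and 45.7% lower, and over the other unmodified elements 48.2% and 41.3%. The median activity of the half-site elements was 0.37, 0.34 and 0.47 in replicates 1 to 3 and 0.40 in the fit, against 0.10 for the other unmodified elements. The difference between the medians was 0.29 ± 0.08 (SD, n = 3 replicates), an error that covers the spread between pools and not between elements. Single elements ranged from -2.30 to 1.47, with an interquartile range from -0.45 to 1.10, so the spread among them was far wider than the shift of the median.

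On pCrx, 17 half-site elements were called higher (51.5%), 8 lower (24.2%) and 8 neither way, where 37.4% of all library elements were higher and 38.5% lower. The other unmodified elements were called higher in 49.6% and lower in 31.2%. The median of the half-site elements was 0.30, 0.46 and 0.30 in the replicates and 0.32 in the fit, against 0.22 in the others. The difference between the medians, 0.13 ± 0.11 (SD, n = 3 replicates), was about the size of its spread between pools. The fitted difference of 0.10 became 0.01 without replicate 2 and 0.16 without replicate 1. With libraries scaled by total counts, 14 half-site elements were higher and 12 lower on pCrx, while 27.3% of all elements were higher and 56.9% lower. The elements reached from -1.29 to 2.17.

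The most active half-site element on pRho was chr7:116981288-116981387, with log2 activities of 1.43, 1.38 and 1.61, or 2.77-fold in the fit (log2 1.47 ± 0.06, edgeR adjusted p = 3.6e-18). It ranked 82 among the 1270 unmodified elements, and 3 half-site elements lay in the top 10% of them. On pCrx the same element gave 1.13, 1.42 and 1.04.

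The strongest on pCrx was chr11:120313700-120313799, whose replicates gave 2.07, 2.42 and 2.01 there, 4.5-fold in the fit (log2 2.17 ± 0.09, edgeR adjusted p = 1e-13). It ranked 20 among unmodified elements, and 4 half-site elements lay in the top 10% on this promoter. On pRho its replicates gave 1.39, 1.12 and 1.29.

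Close behind it on pCrx was chr11:57530360-57530459 with 1.96, 2.30 and 2.09, and with 1.49, 1.48 and 1.34 on pRho. The element chr7:52023048-52023147, which holds no TAATCC, gave 1.59, 2.10 and 1.91 on pCrx and 1.25, 1.24 and 1.39 on pRho. Both chromosome 11 elements and this one were called higher on both promoters, and in none did a replicate fall below 1.

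The element chr8:75754210-75754309, whose half-site shares 1 base with a TAATCC, gave 1.33, 1.40 and 1.25 on pRho and 1.54, 1.81 and 1.64 on pCrx. The remaining element among the 5 highest on pCrx, chr7:13540186-13540285, gave 1.27, 1.54 and 1.51 there and 1.02, 0.64 and 0.63 on pRho. Its standard error was the largest of the upper group, 0.16 on pCrx and 0.10 on pRho.

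The least active half-site element on both promoters was chr8:107126118-107126217, which carries an ERR-type T and C before the half-site. Its replicates were -2.23, -2.29 and -2.39 on pRho, 4.94-fold below the library's typical element (log2 -2.30 ± 0.09, edgeR adjusted p = 3.4e-18), and -1.28, -1.01 and -1.63 on pCrx. It ranked 1240 of 1270 on pRho.

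Next lowest was chr8:27956015-27956114, with -1.96, -1.47 and -1.68 on pRho and -1.12, -0.77 and -1.41 on pCrx. These 2 elements were the only half-site elements in the bottom 10% of unmodified elements on either promoter. The element chr17:35101652-35101751 gave -1.08, -1.31 and -1.11 on pRho and -0.52, -1.11 and -0.81 on pCrx, and chr10:79795066-79795165 gave -0.89, -1.10 and -1.31 and then -1.21, -0.61 and -0.73. All 4 were called lower on both promoters.

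The promoters ordered the half-site elements similarly. In 14 elements (42.4%) activity was called higher on both promoters and in 7 (21.2%) lower on both, against 37.3% and 24.7% of the other unmodified elements. Calls in opposite directions occurred in 2 (6.06%), both lower on pRho and higher on pCrx, a pattern found in 8.16% of the others. Another 5 were higher on pRho and uncalled on pCrx, 3 were lower on pRho and uncalled on pCrx, and 1 each was called only higher or only lower on pCrx. Across the 33 elements the correlation of the activities was r = 0.82 (Spearman's rho 0.83), against 0.72 (0.72) across the 1237 others. These are descriptions across elements. On each promoter all elements were measured in the same pools of retinas, and they carried the same barcodes on both promoters.

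The difference between promoters, tested as the interaction of promoter with cDNA against DNA in edgeR, was called in 21 half-site elements. Activity was higher on pCrx in 15 (45.5%) and higher on pRho in 6 (18.2%), where 41% of all library elements were called higher on pCrx and 27.4% higher on pRho. Among the other unmodified elements the shares were 45.0% and 23.5%, so the share higher on pCrx was about the same as theirs. The median difference (pCrx minus pRho) was 0.27, against 0.20 in the other unmodified elements. Scaled by total counts, 13 were higher on pCrx and 11 on pRho, where 34% and 34.6% of all elements were. The count of 6 also moved, to 2 with barcodes as the units and to 10 when each element's barcode of highest ratio was left out.

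The largest difference towards pCrx was that of chr2:120534432-120534531. Its replicates gave -1.41, -1.81 and -1.53 on pRho and -0.25, -0.25 and -0.39 on pCrx, a difference of 1.29 ± 0.11 (edgeR adjusted p = 8e-11), so it was among the 5 lowest on pRho and nearer the library's centre on pCrx, where it was still called lower (log2 -0.30). The element chr5:140346978-140347077 went from -0.74, -0.62 and -0.66 on pRho to 0.57, 0.41 and 0.28 on pCrx (difference 1.11 ± 0.15), and the groups lay on opposite sides of 0. The element chr3:126485073-126485172 was not called on pRho, at 0.05, -0.19 and 0.21, and gave 1.13, 1.09 and 0.95 on pCrx (difference 1.06 ± 0.14).

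The largest difference towards pRho was that of chr7:6398121-6398220, with 1.23, 1.14 and 1.16 on pRho and -0.04, 0.47 and -0.18 on pCrx (difference -1.07 ± 0.14, edgeR adjusted p = 8.6e-08). It was 2.26-fold active on pRho and not called on pCrx. The element chr9:108433406-108433505 was not called on pRho, at -0.10, -0.15 and 0.12, and was called lower on pCrx, at -0.82, -1.06 and -0.84 (difference -0.86 ± 0.11). The element chr10:19053567-19053666 was higher on pRho, at 0.73, 0.76 and 0.57, and was not called on pCrx, at 0.00, 0.13 and 0.07 (difference -0.61 ± 0.12). With barcodes as units the difference of this last element missed the threshold (limma over barcodes, adjusted p = 0.055).

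The bases T and C before the half-site define the ERR type, and 6 of the 7 windows are shown so that their flanks can be compared, with the half-site in capitals.
chr19:58893707-58893806, minus strand: cagcttgttcAAGGTCAagggcggatt
chr10:19053567-19053666, plus strand: taagcccctcAAGGTCAtccaactatg
chr4:131613380-131613479, minus strand: ttgctggatcAAGGTCActgggctcat
chr5:140346978-140347077, minus strand: gtgtcctctcAAGGTCAgaggaggctc
chr2:113803944-113804043, plus strand: cactcagatcAAGGTCAcatgctaagc
chr8:107126118-107126217, plus strand: ttaagagttcAAGGTCAtgctcagatg

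Activities of the 7 ERR-type elements had a range of -2.30 to 0.98 with pRho and of -1.29 to 1.07 with pCrx, so they included the lowest half-site element but none of the highest. The first of them gave 0.98, 1.04 and 0.93 on pRho and 0.91, 0.95 and 0.81 on pCrx. The element on chromosome 4 gave -0.34, -0.42 and -0.14 on pRho and -0.65, -0.21 and -0.08 on pCrx, and chr2:113803944-113804043 gave -0.90, -0.89 and -1.21 and then 0.15, -0.25 and 0.08.

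Over all 7 ERR-type elements, 3 were called higher and 4 lower on pRho, with a median of -0.31, and 3 higher and 2 lower on pCrx, with a median of 0.07. Among the other unmodified elements 48.2% were called higher and 41.3% lower on pRho, and 49.6% and 31.2% on pCrx. The 11 elements with another base before the C had medians of 0.78 on pRho (8 higher, 3 lower) and 0.24 on pCrx (5 higher, 2 lower). The 8 elements with G before the half-site had medians of -0.01 and 0.47, and the 5 with A had 0.56 and 0.32. Only 2 elements had T there, with medians of 0.94 and 1.20. With 2 to 11 elements in a group these medians describe the elements only.

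The hexamer without the A before it went with higher medians than the 7-base half-site. The 96 unmodified elements with AGGTCA but no AAGGTCA had a median of 0.64 on pRho (62 higher, 26 lower) and 0.80 on pCrx (64 higher, 16 lower), against 0.40 and 0.32 for the 33 half-site elements. AGGTCA in any form was in 129 unmodified elements (10.2%). Elements with neither form, 1141 in number, had medians of 0.06 and 0.19. Of these, 46.8% were called higher and 42.5% lower on pRho, and 48.2% and 32.4% on pCrx. Split by the base before the hexamer, the medians were 0.97 on pRho and 1.02 on pCrx for T (34 elements), 0.63 and 0.53 for C (33) and 0.08 and 0.72 for G (29). The half-site elements, with A, thus lay between those with G and those with C on pRho and below all 3 groups on pCrx. The elements differ in the rest of their sequence too, and whether the A itself moves activity was not tested.

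Medians differed with the position of the half-site in the element. The 23 elements with the half-site centred in positions 26 to 75 had medians of 0.68 on pRho (16 higher, 6 lower) and 0.74 on pCrx (14 higher, 3 lower), and the 10 with it nearer an edge had -0.42 (3 higher, 6 lower) and -0.20 (3 higher, 5 lower). Over all library elements 43.2% were called higher and 45.7% lower on pRho, and 37.4% and 38.5% on pCrx. Among the other unmodified elements these shares were 48.2% and 41.3% on pRho and 49.6% and 31.2% on pCrx. The 5 elements with the half-site starting at position 78 or later were all called lower on pRho, between -2.30 and -0.68, while on pCrx 3 were lower, 1 was not called and 1 was higher. This last group was chosen after its values were seen. The other 5 elements with the half-site near an edge had a median of 0.56 on pRho (3 higher, 1 lower) and 0.22 on pCrx (2 higher, 2 lower). Among elements with 1 AGGTCA and no A before it, the 48 with it centred in positions 26 to 75 had medians of 0.58 and 0.48, and the 47 with it outside had 0.66 and 1.05. In that set, the 24 elements with the hexamer from position 78 on had medians of 0.77 on pRho (17 higher, 6 lower) and 1.12 on pCrx (18 higher, 5 lower). Of the 5 late half-site elements, 3 were also of the ERR type, and in those 3 extension and position cannot be told apart. The late elements without T and C before the half-site had -1.09 and -1.71 on pRho. The ERR-type elements with an earlier half-site had 0.98, 0.68, 0.27 and -0.31 there. Whether position or extension moves activity was not tested.

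Half-site elements that also held TAATCC had the higher medians. The 22 with TAATCC had medians of 0.62 on pRho and 0.61 on pCrx, and the 11 without it had 0.18 and 0.10. In the unmodified elements lacking the half-site, the 787 with TAATCC had medians of 0.14 and 0.27 and the 450 without it 0.02 and 0.14. The difference of medians between half-site elements and others was 0.48 on pRho and 0.34 on pCrx within the elements holding TAATCC. Without TAATCC the half-site elements had 0.18 against 0.02 on pRho, and on pCrx they lay slightly below the others, at 0.10 against 0.14. The 4 half-site elements with an NR2E3-type AAGTCA had medians of -0.58 and -0.20, and the 7 with neither TAATCC nor an E-box, NRL or NR2E3-type site had -0.04 and -0.30. By orientation, the 10 half-sites on the plus strand had medians of 0.05 and 0.03 and the 23 on the minus strand 0.56 and 0.48.

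The library held 282 modified versions of 32 half-site elements. Of these, 223 belonged to 4 elements changed base by base, with 53 to 58 versions each, and 28 elements had 1 to 7. The versions aimed at homeodomain sites and their surroundings: 281 kept the 7 bases, and the remaining one moved the A in front of AGGTCA past the end of the element. No version substituted a base of a half-site. On pRho 162 versions were called less active than their unmodified parent (57.4%) and 23 more active (8.16%), where 43.7% of all 13717 pairs of the library fell and 16.3% rose (edgeR interaction of allele with cDNA against DNA, adjusted over all pairs). On pCrx 163 fell (57.8%) and 18 rose (6.38%), where 43.7% fell and 10.6% rose over all pairs. With barcodes as units (limma) the falls came to 117 on pRho and 127 on pCrx, and the rises to 4 and 10. Versions of 1 parent share its reads and are not independent.

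The version that lost the 7-base half-site was a 3-base insertion in chr8:27956015-27956114. It starts at position 43 and shifts the half-site, at positions 92 to 98, so that its leading A falls off the end, while the hexamer AGGTCA stays as the last 6 bases. The last 20 bases are shown as the design table writes them, where the half-site reads TGACCTT and the hexamer TGACCT.
parent: acttagcttggtgaccttgg
with the 3-base insertion: atgacttagcttggtgacct

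This version gave -1.92, -1.77 and -1.67 on pRho against -1.96, -1.47 and -1.68 for the parent, a change of -0.07 ± 0.14 that was not called (edgeR adjusted p = 0.67). On pCrx it gave -0.32, -0.26 and -0.78 against -1.12, -0.77 and -1.41, a rise of 0.64 ± 0.18 (edgeR adjusted p = 0.0046) that missed the threshold without replicate 1. Insertions of 1 and 2 bases at the same place, which kept the half-site, changed activity by nearly as much: -0.02 ± 0.13 and 0.01 ± 0.13 on pRho, and 0.58 ± 0.16 and 0.59 ± 0.17 on pCrx. The 3 insertions lay within each other's errors on both promoters, and the loss of the A was always joined to the insertion. No version removed the hexamer.

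A half-site was created in 3 versions of elements that lacked it. The parent and changed windows are shown on the strand of the new site, with the 7 places in capitals.
chr1:152159982-152160081, parent: tttttaatccAAGGTTAgtcc
chr1:152159982-152160081, A6G: tttttaatccAAGGTCAgtcc
chr10:84423426-84423525, parent: tactcagaagAAGGTGAttagtatcaa
chr10:84423426-84423525, G52C: tactcagaagAAGGTCAttagtatcaa
chr5:144467446-144467545, parent: gggatccatcAAAGTCAattactcttg
chr5:144467446-144467545, T23C: gggatccatcAAGGTCAattactcttg

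Changes are named with the parent's base, the position counted from 1 at the element's first base, and the new base, as the design table writes the element. In each of the 3 elements the same base was also changed to the other two bases, which made no half-site. The new sites did not share a direction, and each is compared with those versions. All 3 changes were made in scans of homeodomain sites and their surroundings, and whether they act through such a site was not tested.

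In the element on chromosome 1, A6G left activity at 0.53, 0.33 and 0.46 on pRho against 0.33, 0.30 and 0.49 in the parent, a change of 0.07 ± 0.11. On pCrx it changed by -0.15 ± 0.19 (edgeR adjusted p = 0.52), where A6C fell by 0.78 and A6T by 1.23 on the log2 scale. A6G was thus not called at a position where the other bases lowered activity on pCrx in this fit, and with barcodes as units A6T kept an adjusted p under 0.05 (0.0069, limma) and A6C did not (0.11). The site lies directly beside a TAATCC.

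In the element on chromosome 10, G52C gave 0.04, 0.03 and 0.34 on pRho against 0.34, 0.11 and 0.80 in the parent, a fall of 0.28 (log2 -0.28 ± 0.12, edgeR adjusted p = 0.044). The other changes at this base were lower still, at -0.79 ± 0.14 for G52A and -0.70 ± 0.13 for G52T. On pCrx G52C changed by -0.41 ± 0.14 and G52T by -0.37 ± 0.14, which did not differ by more than their errors, and G52A changed by -0.08 ± 0.15.

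In the element on chromosome 5, T23C gave 1.32, 1.33 and 1.49 on pRho against 0.90, 0.73 and 1.06, a rise of 0.49 ± 0.11 (edgeR adjusted p = 0.00019), and on pCrx it rose by 0.37 ± 0.12. T23A, which made no half-site, rose by 0.46 ± 0.12 and 0.36 ± 0.13, and T23G fell, at -0.30 ± 0.11 and -0.32 ± 0.12. The parent's AAAGTCA holds the NR2E3-type AAGTCA, which all 3 changes removed at this place. The half-site made by T23C has T and C before it and so is of the ERR type. With barcodes as units, of the effects of the 3 new sites only that of T23C on pRho kept an adjusted p under 0.05 (0.029, limma), and T23A on pRho did not (0.15).

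Single K50-type homeodomain sites, the class bound by CRX, were changed in 40 versions of 27 half-site elements. On pRho 26 versions fell (65%) and 3 rose (7.5%), with a median change of -0.69, and on pCrx 28 fell (70%) and 0 rose, with a median of -0.78. In versions of the other elements falls were called in 57.4% on pRho and 53.8% on pCrx and rises in 17.2% and 10.3%, with medians of -0.38 and -0.43. The parents differed in level too, with medians of 0.55 on pRho and 0.43 on pCrx against 0.09 and 0.22. Where the parent was called higher on the promoter in question, the median change was -0.92 on pRho (26 versions, against -0.63 over 650 of other elements) and -1.24 on pCrx (25 versions, against -0.90 over 695). These parents still differed in level, with medians of 1.10 against 0.94 on pRho and 1.22 against 1.00 on pCrx. The parent's reads enter both this selection and the change, so the selection itself favours falls.

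The largest single-site fall on pCrx was in chr11:57530360-57530459, where T10G left activity 6.53-fold lower (log2 -2.71 ± 0.14), and 3.64-fold lower on pRho (log2 -1.87 ± 0.10). The largest on pRho was T64G in chr3:126485073-126485172, 5.13-fold (log2 -2.36 ± 0.15) and 2.96-fold on pCrx. All K50 sites changed together gave smaller falls than these maxima, 4.69-fold on pCrx in the first element and 2.91-fold on pRho in the second. On the other promoter the joint change gave larger falls than the single one, 4.28-fold on pRho in the first and 3.45-fold on pCrx in the second. In the strong element chr11:120313700-120313799, the fall for A57C was 4.57-fold on pCrx and 1.71-fold on pRho. A57C lies in an arm of a paired homeodomain site, whose cores flank a short spacer. A17C lies outside that pair and gave changes of -0.05 ± 0.10 on pRho and -0.12 ± 0.12 on pCrx that were not called. The arm of the pair and the site outside it thus differed widely within this element.

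The site that overlaps a half-site is shown with its neighbour at positions 47 to 76 of chr8:75754210-75754309, in the design table's orientation, where the half-site (capitals) reads TGACCTT. In the changed sequence both sites carry their substitution, A50C and A68C, and the half-site is intact.
parent: taaatcctatccgTGACCTTaatcccagca
A50C and A68C: taactcctatccgTGACCTTactcccagca

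The version with both changes gave -1.69, -1.71 and -1.86 on pRho, where the parent gave 1.33, 1.40 and 1.25. Activity was 8.45-fold lower (log2 -3.08 ± 0.11, edgeR adjusted p = 3e-29), the largest fall among the 282 versions on pRho. On pCrx it gave -0.53, 0.04 and -0.60 against 1.54, 1.81 and 1.64, 4.1-fold lower. A68C alone, next to the half-site, gave a fall of 4.19-fold on pRho and 3.18-fold on pCrx, and A50C alone 1.70-fold and 2.71-fold. Activity on pRho lay above 0 in the parent and below it in this version, although AAGGTCA itself was unchanged. A68C also changed a base shortly before AAGGTCA on the half-site's own strand, the side where a monomer reads added bases. Whether the fall came through the homeodomain sites or through this flank of the half-site was not tested.

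In 8 half-site elements all K50 sites had been changed together, and 7 fell on each promoter (87.5%), against 68.0% of 353 other elements on pRho and 61.5% on pCrx, with median changes of -1.93 on pRho and -1.43 on pCrx. In those other elements the medians were -0.78 and -0.74, and their parents' median activities were 0.09 and 0.41 against 0.94 and 1.03. Among parents called higher on the promoter the medians were -2.09 (6 elements) against -1.22 (171) on pRho, and -1.47 (7) against -1.25 (196) on pCrx. The median activities of these parents were 1.16 against 0.97 on pRho and 1.06 against 1.08 on pCrx. This selection too uses the parent's reads and so favours falls. In the chromosome 14 element chr14:23427984-23428083, named after its values were seen, the replicates went from 0.74, 0.72 and 0.88 to -1.72, -1.34 and -1.42 on pRho, 4.85-fold lower. In chr11:57530360-57530459 they went from 1.49, 1.48 and 1.34 to -0.67, -0.63 and -0.69 on pRho and from 1.96, 2.30 and 2.09 to -0.06, -0.11 and -0.17 on pCrx. The exception was the least active element, chr8:107126118-107126217, whose version changed by 0.11 ± 0.15 on pRho and -0.27 ± 0.26 on pCrx, neither of them called.

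The 4 elements changed base by base differed in how often a change lowered them. For reference, falls were called in 43.7% of all 13717 pairs of the library with either promoter. Called rises made up 16.3% of the pairs with pRho and 10.6% with pCrx. In chr10:19053567-19053666, 46 of 58 versions fell on pRho and 43 on pCrx, with 4 and 5 rising. In chr12:84788426-84788525, also named after its values were seen, 44 of 53 fell on pRho and 36 on pCrx, and the single riser on each promoter was C43T, at 0.76 on pRho and 1.66 on pCrx. In chr11:120313700-120313799, the strongest of the 4, falls were near the library's share, in 23 of 58 versions on pRho and 28 on pCrx, with 0 and 1 rising. With barcodes as units these came to 9 falling on pRho and 19 on pCrx, against 39 and 38 in the chromosome 10 element and 36 and 26 in that on chromosome 12.

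The low element chr8:27956015-27956114 ran the other way on pRho, with 8 of its 54 versions falling and 15 rising, and with 13 falling and 11 rising on pCrx. Its lowest version on both promoters was A46C, at -1.38 on pRho and -1.93 on pCrx. With barcodes as units the calls on pRho came down to 2 versions in each direction, and those on pCrx to 8 falling and 7 rising, so most of the rises on pRho did not pass that test.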

How the data were processed

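CRE-seq cDNA and DNA libraries of 2 promoters with 3 replicates each were used (12 in all, grouped by the labels). The authors deposited read counts per barcode, taken as counts, and log2 expression values, which have the same distribution in all replicates and served only as an alternative for the difference of medians. No source used here names the tool that counted barcodes, and the build mm9 is per the submitters' processing notes. The authors deposited positions and sequences of each oligo in the design table. Their table of comparisons was not used, and 0 columns of samples stayed unmatched.

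Counts were summed per element over its 6 or 7 barcodes. A minimum of 10 DNA counts per DNA library was set, and all 14987 elements passed it. Activity, promoter difference and effects of modified versions were fitted over the whole table with edgeR 4.0.16 (R 4.3.3, TMM scaling, quasi-likelihood test, Benjamini-Hochberg threshold 0.05). Per-replicate ratios used a pseudocount of 0.5. The script was tested on simulated data. Alternatives were total-count scaling, DESeq2 1.42.0, count filters of none and 500, each replicate left out, a replicate block, the barcode of highest ratio left out, and limma 3.58.1 with barcodes as units; the difference of medians was also taken after a fit on GC, over means, and against other sets of elements.

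Element positions were taken 50 bases inside each end of the named region of 200 bases, since named and element positions differed by 50 in all 7028 named single-base changes. Named elements were the 5 highest and 5 lowest per promoter, the 3 largest promoter differences each way, all ERR-type elements and all versions that lose or gain a half-site. The half-site elements, motifs and splits were chosen with earlier results of these data known. Same-numbered cDNA and DNA libraries come from the same pool of retinas per the labels, and their deviations from the group means correlated between -0.04 and 0.05, so pairing showed little in the counts. Total reads per library were 24726849 to 36500857. Intervals and errors cover counting and pool spread only.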

Additional observations from a re-analysis of the deposited data

Results flagged for a closer look

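Calls in opposite directions on the 2 promoters were made in 2 of the 33 half-site elements (6.06%), against 101 of the 1237 other unmodified elements (8.16%) with the same pattern. In chr19:45367041-45367140 activity was called lower on pRho and higher on pCrx. Its replicates were -0.49, -0.41 and -0.52 on pRho and 0.20, 0.44 and 0.30 on pCrx, and the promoter difference was 0.80 ± 0.10 (edgeR interaction test, Benjamini-Hochberg adjusted p = 1.2e-07). Its pCrx activity was -0.02 under total-count scaling and was not called there, nor with barcodes as units (limma, adjusted p = 0.052). In chr5:140346978-140347077 the direction was the same and the difference 1.11 ± 0.15 (edgeR adjusted p = 1.7e-07). Under total-count scaling the pCrx activity of the latter was 0.09 and was not called higher. No half-site element was called higher on pRho and lower on pCrx, against 43 of the 1237 other unmodified elements (3.48%).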

How the results depend on the processing

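Of 598 values computed under other settings for the 60 fitted values of the 20 named elements, 576 kept their call or lack of one, 16 lost a call and 5 gained one, and the remaining one is the activity of chr10:19053567-19053666 on pCrx, which went from 0.07 (not called) to -0.27 under total-count scaling. The sign changed in 21 of the values, all from 6 fitted values that were not called and lay within 0.0954 of 0. With the replicate block, which pairs cDNA and DNA of a pool, 19 and 12 half-site elements were called higher and lower on pRho and 18 and 8 on pCrx (17 and 8 without it), 15 and 6 had promoter differences, and every call made without it was kept. The count of differences higher on pRho was 6, and became 2 with barcodes as units, 10 when the highest-ratio barcode was dropped and 11 under total-count scaling. Total-count scaling moved the median of all library elements from -0.04 to -0.23 on pRho, from -0.05 to -0.39 on pCrx and from 0.12 to -0.02 for the difference.

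The difference of medians between half-site and other elements (0.30 on pRho) became 0.56 after subtracting a straight-line fit on GC, 0.48 within TAATCC elements and -0.24 against the elements with AGGTCA but no A before it. It became 0.17 without the 4 elements with a further AGGTCA and 0.17 without the 4 changed base by base, both chosen after seeing the data. With the authors' deposited log2 values it was 0.30 on pRho and 0.09 on pCrx. On pCrx (0.10) it became 0.21 as a difference of means, 0.34 within TAATCC elements, -0.49 against the AGGTCA elements and 0.21 without the 4 changed base by base. In elements without TAATCC the medians were 0.18 with the half-site against 0.02 on pRho, and 0.10 against 0.14 on pCrx. With 1 replicate left out the pRho value lay between 0.25 and 0.35 and the pCrx value between 0.01 (without replicate 2) and 0.16 (without replicate 1). The insertion that removed the A of the half-site raised pCrx activity by 0.64, and by 0.56 to 0.71 with 1 replicate left out, where leaving out replicate 1 lost the call. With barcodes as units, 27 of 31 pRho calls, 22 of 25 pCrx calls and 14 of 21 promoter differences were kept. With at least 500 DNA counts required, 18 of 21 promoter differences were kept and the counts were 12 and 9.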

Other observations

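The 4 half-site elements with a further AGGTCA held pairs of different geometry. In chr2:4981089-4981188 the hexamers overlapped by 1 base in the same orientation, in chr8:75754210-75754309 they lay 12 bases apart in the same orientation, in chr3:89999720-89999819 they faced each other 19 bases apart, and in chr8:107126118-107126217 they stood back to back 71 bases apart. The fitted activities on pRho were 0.55, 1.33, 0.40 and -2.30 and on pCrx 0.74, 1.66, 0.19 and -1.29. On pRho the first 3 were called higher and the last lower, where 48.2% of the other unmodified elements were higher and 41.3% lower. On pCrx the element on chromosome 3 was not called. The last element is also of the ERR type, with its half-site from position 84 on, so the geometry cannot be told apart from these traits. In chr2:4981089-4981188 the K50 change A73C went with activity 4.31-fold lower on pRho and 2.53-fold lower on pCrx.

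The ERR-type element chr18:39332196-39332295 gave 0.35, 0.20 and 0.26 on pRho and 1.09, 0.94 and 1.17 on pCrx, and it holds no TAATCC.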
